A study of Caenorhabditis elegans with 45 samples.

Results

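Notch signalling lets neighbouring cells of the worm Caenorhabditis elegans choose between fates. A ligand of the DSL family on one cell binds a receptor on the next, an ADAM protease and then gamma-secretase cut the receptor, and its intracellular part enters the nucleus, where it joins the DNA-binding protein LAG-1 and the coactivator SEL-8. The worm has the receptors LIN-12, known for the anchor cell and vulval decisions, and GLP-1, which keeps germline stem cells dividing. Its DSL ligands lack the DOS motif of ligands in other animals, and separate DOS-motif proteins are thought to act with them as co-ligands. Described here are 9 genes of this system out of the 20182 in the table: the 5 co-ligand genes dos-1, dos-2, dos-3, osm-7 and osm-11, the 2 DSL ligand genes lag-2 and apx-1, and the 2 receptor genes lin-12 and glp-1. They were picked by gene symbol, with the unusually wide wave of dos-2 in continuous N2 worms in view, so the size of the wave in that course is given as a description and is not a result.

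The values are poly(A) RNA counts from whole worms in 45 libraries, with 1 library per time point and no replicates. The first group was wild-type N2 grown continuously on OP50 bacteria after hatching, with 16 hourly libraries at sample-name hours 21 to 36; this culture grew slowly, and its recorded ages were 22 to 37 hours. The second group was N2 recovering from dauer, a larval arrest stage, with 22 hourly libraries at 1 to 22 hours after feeding. The third group was glp-4(bn2), grown continuously, with 7 libraries every 2 hours from 40 to 52 hours. The bn2 allele is temperature-sensitive and leaves few germ cells at the restrictive temperature; the sources used here do not give the temperature. Library totals ran from 18512549 to 43984242 counts. Levels are in CPM, the usual scaling of a count by its library total, errors of fits come from the scatter of libraries around a curve, and p-values measure only that scatter. In RNA of whole worms, fewer cells of a type and less RNA per cell cannot be told apart.

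The markers of the germline followed the labels. Summed over 13 early and meiotic germline markers, the level was 1507 to 2734 CPM in N2 at hours 29 to 36 and 67.8 to 148 CPM in glp-4(bn2), and all 13 were lower in every glp-4(bn2) library than in every one of these N2 libraries. All 8 oogenesis markers were lower in the same way, at a summed 8.76 to 12.5 CPM against 152 to 1085 CPM. Of 7 sperm markers 6 were lower in the same way, and msp-3 and msp-10 had no counts in any glp-4(bn2) library. In contrast, 0 of 5 markers of the somatic gonad and distal tip cell and 0 of 8 epidermis and molting markers stood below N2 in that way, and the somatic gonad sum was 60.2 to 103 CPM against 56.3 to 70.4 CPM. The sum of 4 neuron markers was higher, at 159 to 233 CPM against 93.1 to 144 CPM, and that of 2 intestine markers was 104 to 139 CPM against 62.5 to 104 CPM; 1 marker of each list stood above N2 in every glp-4(bn2) library. Both N2 courses gained germline RNA: of the 13 early and meiotic markers 9 rose in each, and all 8 oogenesis markers rose in each.

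Among the co-ligand genes, 3 cycled, and their fitted peaks came one after another in both N2 courses. The gene dos-2 (WBGene00019640; chromosome II, 3976242 to 3978043, plus strand, WBcel235) peaked together with the molting gene mlt-10, osm-7 peaked next and dos-1 last. A wave was called when the 8 h cosine and sine terms together passed an adjusted p of 0.05 and the fitted amplitude, from mean to peak, was at least 0.5 on the log2 scale. In dauer exit, whose hours 11 to 22 were fitted, 3 of the 8 genes tested were called, beside 32.7% of all 15360 genes tested. In continuous N2 the same 3 of 8 were called, beside 26.3% of all 15622 genes tested, and nothing is read from that count. The median fitted amplitude of the 8 genes tested was 0.36 in dauer exit and 0.34 in continuous N2, against 0.32 and 0.27 over all genes tested; dos-3 did not pass the filter on low counts in either fit.

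The level of dos-2 in continuous N2 was between 0 and 27.0 CPM, with a median of 1.01 CPM. It was 8.53 CPM at hour 24, had no counts at hour 28, and reached 14.0, 27.0 and 11.0 CPM at hours 31, 32 and 33. These are isolated spikes: only a few neighbouring hours stood above the near-absent level in between. The fitted amplitude was 4.03 ± 0.24 (SE, log2) with peaks at 23.8 and 31.8 h, rank 9 among the 15622 genes tested. In dauer exit no dos-2 count was found in any library of hours 1 to 6, then 8.83 CPM at hour 9 and 18.5 CPM at hour 17. Against the floor of 3 counts over those 6 libraries, 0.0231 CPM, the level was at least 382-fold higher at hour 9 and at least 802-fold higher at hour 17. The dauer exit amplitude was 4.08 ± 0.53, and 0.189% of the genes tested had a larger one (adjusted p = 0.000288 by the quasi-likelihood F-test of edgeR, with the Benjamini-Hochberg method over all genes tested, as for each adjusted p below). The second spike was higher than the first in both courses, 3.16-fold in continuous N2 and 2.10-fold in dauer exit, each from 1 library per peak.

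The gene osm-7 (WBGene00003887; chromosome III, 13576182 to 13580662, plus strand), named for the osmotic behaviour of its mutants, cycled at a much higher level. In continuous N2 it lay between 13.4 and 233 CPM with a median of 47.9 CPM, and was high at hours 25 and 26 (233 and 221 CPM) and again at hour 34 (232 CPM). In dauer exit it was already at 101 and 133 CPM in the first 2 libraries, fell to 23.9 CPM at hour 8, rose to 330 CPM at hour 11, dropped to 8.89 CPM at hour 16 and stood at 221 CPM at hour 19. So osm-7 RNA was present before the first dos-2 count was seen. The dauer exit amplitude was 2.25 ± 0.23 with peaks at 11.1 and 19.1 h (adjusted p = 0.000352), and the continuous N2 amplitude was 1.99 ± 0.19. The second peak was 0.997 times the first in continuous N2 and 0.668 times the first in dauer exit.

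The gene dos-1 (WBGene00013980; chromosome III, 9103943 to 9106805, plus strand) ranged from 1.28 to 16.9 CPM in continuous N2, with a median of 5.86 CPM. It was high at hour 27 (12.4 CPM) and at hours 34 to 36 (15.1, 11.8 and 16.9 CPM). Hour 36 is the last library, so the second peak is not bounded. In dauer exit it was near absent until hour 9, at 0 to 0.241 CPM with 3 libraries at 0, and then reached 11.5 CPM at hour 12 and 14.0 CPM at hour 21. The dauer exit amplitude was 1.37 ± 0.18 with peaks at 11.7 and 19.7 h (adjusted p = 0.00121), and the continuous N2 amplitude was 1.23 ± 0.16. With a period of 7 h in place of 8 h the dauer exit wave of dos-1 was not called (amplitude 1.14, adjusted p = 0.109).

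**Figure D1:**
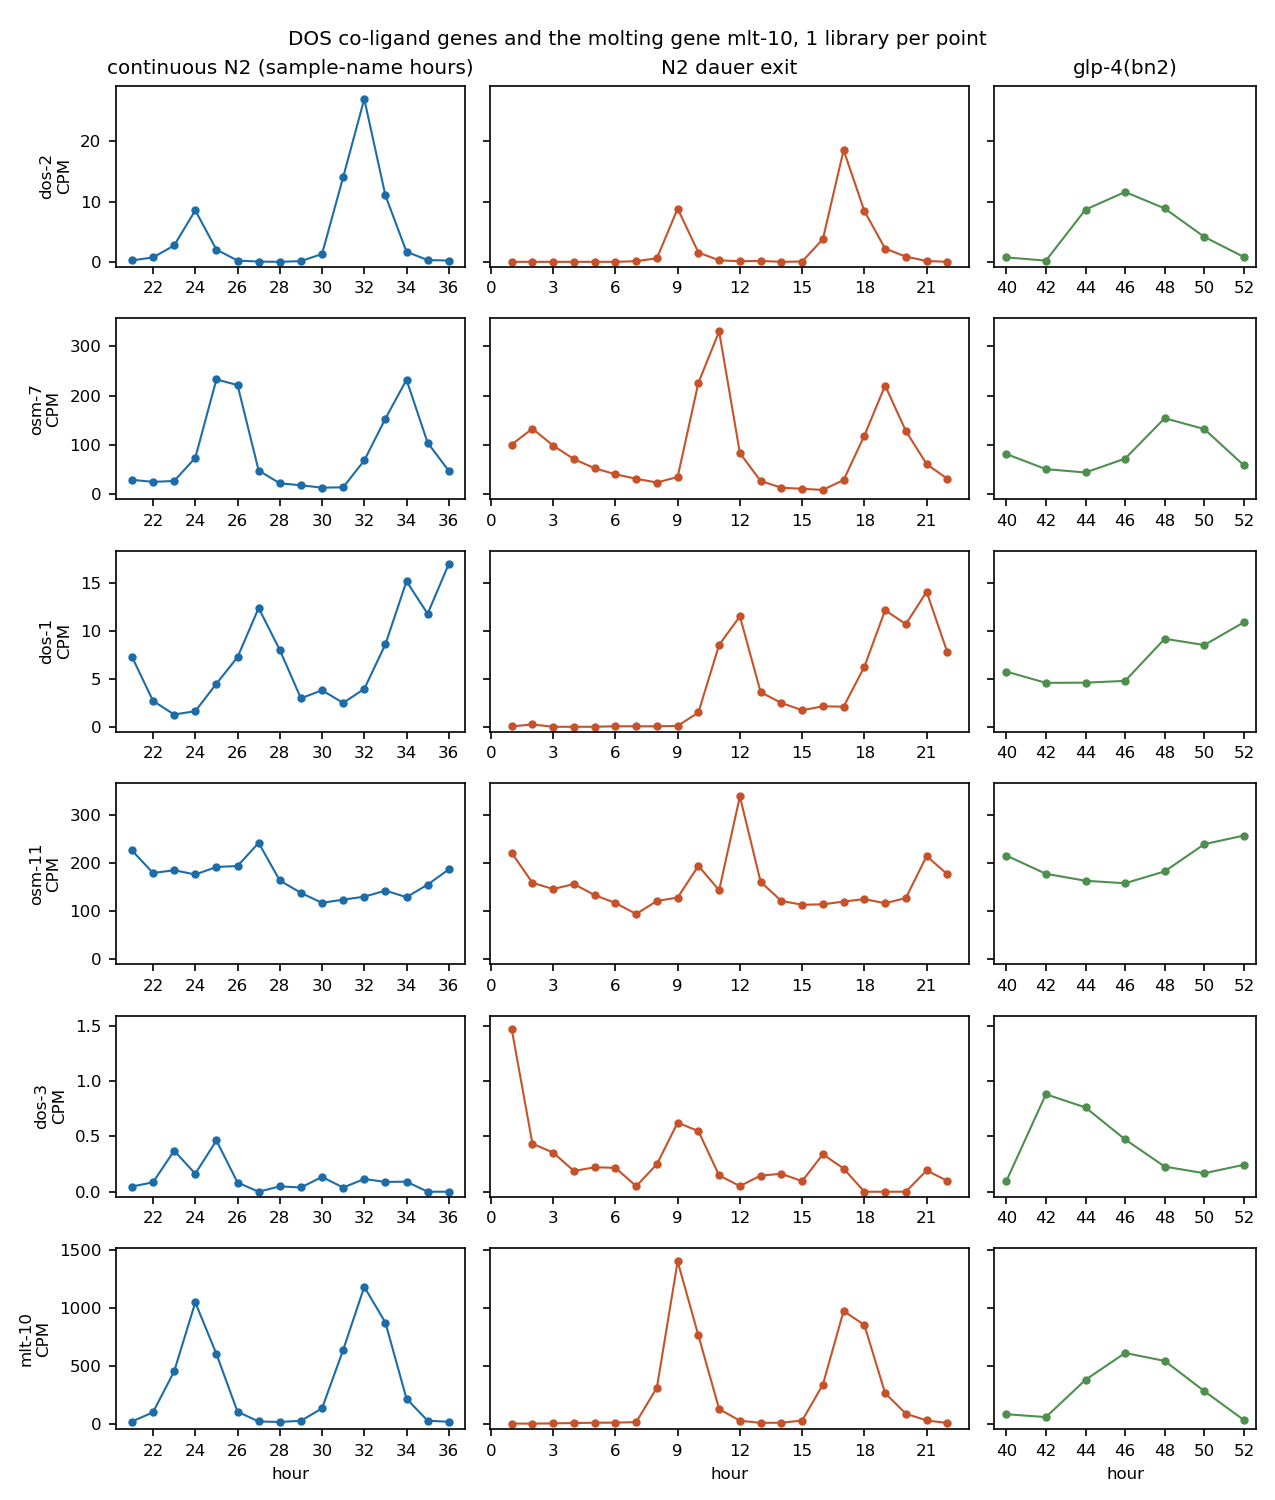
Level (CPM, vertical axes, shared along each row) of the 5 co-ligand genes and of mlt-10 against hour, in continuous N2 (blue), N2 dauer exit (orange) and glp-4(bn2) (green); each point is 1 library. The spikes of dos-2 at hours 24, 32, 9, 17 and 46 coincide with those of mlt-10, and osm-7 and dos-1 follow in both N2 courses. The level of osm-11 varies above a high base, highest at hour 27 in continuous N2 and at hour 12 in dauer exit. That of dos-3 does not exceed 0.880 CPM after its first dauer exit library, at 1.47 CPM.

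Measured from the fitted peak of mlt-10, dos-2 peaked 0.24 ± 0.07 h (SE) earlier in continuous N2, a lag of -0.24 h, and had a lag of -0.16 ± 0.16 h in dauer exit. The lag of osm-7 was 1.68 ± 0.12 h in continuous N2 and 1.60 ± 0.16 h in dauer exit. For dos-1 it was 2.96 ± 0.16 h in continuous N2 and 2.22 ± 0.18 h in dauer exit. The order dos-2, osm-7, dos-1 was thus the same in both courses, with steps between neighbours larger than their standard errors in the 8 h fit. These errors hold for that fixed period, and lags at other periods were not computed. Whether the waves differed between the courses was tested after shifting the dauer exit clock by 1.41 h, the mean difference over the 3468 genes called in both. On that clock dos-1 peaked -0.71 ± 0.22 h from its continuous N2 position, dos-2 0.12 ± 0.15 h and osm-7 -0.04 ± 0.18 h. None of the 8 genes tested passed the joint edgeR test (0 of 15824 genes did, 0%; 877 genes at an unadjusted p under 0.05, among them dos-1 with p = 0.0211 and adjusted p = 0.856). The difference in amplitude, dauer exit minus continuous N2, was 0.05 for dos-2, 0.15 for dos-1 and 0.27 for osm-7 on the log2 scale. This comparison depends on the clock: with the shift set 1 h earlier 2 genes were called different, dos-2 and osm-7, and with it set 1 h later 3 were, these and dos-1.

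**Figure D2:**
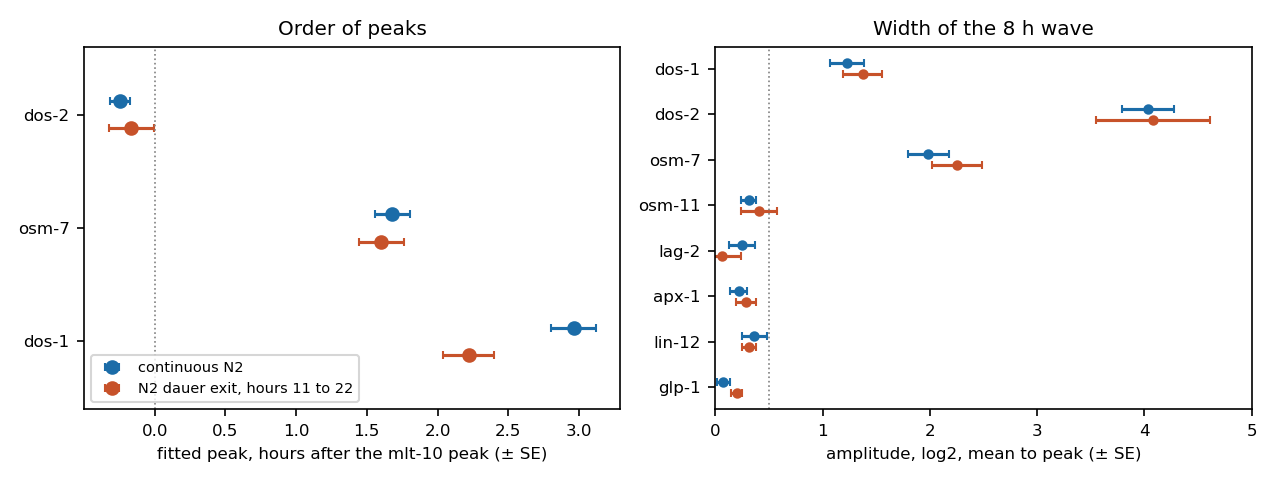
Left, fitted peak time of the 3 cycling co-ligand genes in hours after the fitted mlt-10 peak (points, with bars for the SE), in continuous N2 (blue) and N2 dauer exit hours 11 to 22 (orange). Right, fitted 8 h amplitude (log2, mean to peak, bars for the SE) of the 8 genes tested, with a dotted line at the 0.5 needed for a call: dos-2, osm-7 and dos-1 lie above it in both courses and the other 5 below.

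The remaining co-ligand genes had no called wave. The gene osm-11 (WBGene00003891; chromosome X, 17420211 to 17421582, minus strand), a secreted co-ligand known for its part in vulval induction and osmotic tolerance, was always high. It ranged from 118 to 243 CPM in continuous N2 (median 171 CPM), from 94.3 to 340 CPM in dauer exit (median 131 CPM) and from 159 to 258 CPM in glp-4(bn2) (median 183 CPM). The single library at dauer exit hour 12, at 340 CPM, stood above its neighbours at 144 and 161 CPM. Its levels were also read in windows, hours 21 to 28 and 29 to 36 of continuous N2 and 7 to 14 and 15 to 22 of dauer exit. In each window the highest osm-11 library was the one in which dos-1 was also highest. These were hours 27 and 36 (243 and 187 CPM) in continuous N2 and hours 12 and 21 (340 and 215 CPM) in dauer exit. At dauer exit hour 1, with dos-1 at 0.0420 CPM, osm-11 stood at 222 CPM, and at continuous N2 hour 21 it stood at 227 CPM. Its wave in dauer exit was not called, with an amplitude of 0.40 ± 0.17 (adjusted p = 0.134). In continuous N2 it passed the p threshold (adjusted p = 0.00961, edgeR) but its amplitude, 0.31 ± 0.07, was under the size needed. The gene dos-3 (WBGene00019331; chromosome III, 835751 to 839591, minus strand) was close to absent, with at most 35 counts in any library. It had no counts in 3 of 16 continuous N2 libraries and in 3 of 22 dauer exit libraries, and its highest level, 1.47 CPM, was in the first dauer exit library. Over dauer exit dos-3 fell, from a mean of 0.752 ± 0.623 (SD, n = 3) CPM in the first 3 libraries to 0.0966 ± 0.0959 CPM in the last 3 (fitted change -3.29 ± 1.41 on the log2 scale, adjusted p = 0.0280, edgeR). Without hour 1, hour 9 or hour 10 it did not pass the filter and had no test. Its exons overlap the opposite-strand gene zip-2 over 64 bp, and at dauer exit hours 3 to 5 zip-2 stood at 339 to 405 CPM while dos-3 did not exceed 0.353 CPM.

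Over the length of each course, apx-1 rose and lag-2 and lin-12 fell in both N2 courses. Rises and falls were called where the adjusted p was below 0.05 and the fitted change reached 1 on the log2 scale. The change was estimated beside the wave in continuous N2 and by a spline over all 22 hours of dauer exit. Each adjusted p printed with a dauer exit change tests the whole spline, so any departure from a flat line. It does not test the change from first to last hour, whose own error is the SE beside it. In continuous N2, 2 of 8 genes tested rose (dos-2 and apx-1), beside 20.6% of all genes tested, and 2 fell (lag-2 and lin-12), beside 15.3%. The gene dos-2 was picked with these libraries in view, so nothing is read from its rise there. In dauer exit 4 of 9 rose (dos-1, dos-2, apx-1 and glp-1), beside 29.9%, and 3 fell (dos-3, lag-2 and lin-12), beside 24.7%. The median fitted change was 0.01 in continuous N2 and 0.23 in dauer exit, against -0.12 and 0.12 over all genes tested. With library size alone as the scaling the median of all genes was -0.03 in both courses, and these counts of rising and falling members were the same in dauer exit.

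The ligand gene apx-1 (WBGene00000168; chromosome V, 3210196 to 3223221, plus strand), whose maternal product induces a blastomere fate through GLP-1 in the early embryo, rose in both N2 courses. In continuous N2 it lay between 3.24 CPM at hour 24 and 26.8 CPM at hour 36, with a median of 8.38 CPM. The first 3 libraries averaged 4.29 ± 0.471 (SD, n = 3) CPM and the last 3 averaged 21.4 ± 5.58 CPM, 4.99-fold more, and the groups did not overlap. The fitted change was 2.50 ± 0.19 on the log2 scale (adjusted p = 2.65e-08, edgeR). In dauer exit apx-1 stayed between 4.43 and 7.56 CPM through hour 10 and then climbed to 53.6 CPM at hour 22. Its mean went from 5.94 ± 1.40 to 40.3 ± 11.7 CPM, 6.79-fold (fitted change 2.99 ± 0.26, adjusted p = 9.92e-12, edgeR). Over the same libraries gld-1, which controls entry into meiosis, rose 8.28-fold in continuous N2 and 8.17-fold in dauer exit. Other germline genes differed widely: glh-1 rose 2.41-fold and 1.70-fold, the latter not called, and puf-5 rose 28.9-fold and 63.6-fold.

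The ligand gene lag-2 (WBGene00002246; chromosome V, 3188343 to 3190115, plus strand), whose product on the distal tip cell signals to the germline stem cells, fell in every course. In continuous N2 it went from 4.93 ± 0.680 (SD, n = 3) CPM in the first 3 libraries to 1.04 ± 0.337 CPM in the last 3, 4.74-fold lower, with no overlap (fitted change -3.14 ± 0.30, adjusted p = 3.3e-07, edgeR). In dauer exit the highest library was the first, at 12.1 CPM, and the lowest was hour 20, at 0.477 CPM. The means were 10.1 ± 2.22 and 0.742 ± 0.307 CPM, 13.6-fold lower (fitted change -3.60 ± 0.33, adjusted p = 3.81e-11, edgeR). In glp-4(bn2) the level fell from library to library, from 3.35 CPM at 40 h to 0.730 CPM at 52 h, the 1 fall called among 9 genes tested, beside 1.53% of all genes (fitted change -1.88 ± 0.32, adjusted p = 0.0399, edgeR). That last call was lost when any single library from 40 to 50 h was left out, with an adjusted p up to 0.244. Of the neuron markers 4 of 4 fell in continuous N2, beside 15.3% of all genes tested, and 3 of 4 in dauer exit, beside 24.7%. Their sum went from 247 to 96.7 CPM and from 848 to 95.2 CPM between the first and last hour. In glp-4(bn2) 0 of 4 fell. Other lists had falls too: in continuous N2 2 of 2 seam markers tested and 1 of 4 vulva markers fell, and 1 vulva marker rose. In dauer exit 1 of 2 and 3 of 4 fell. Of 8 epidermis and molting markers 3 fell in continuous N2 and 5 rose in dauer exit. The distal tip cell marker hlh-12 fell as well, by a fitted change of -2.42 ± 0.40 in continuous N2 (adjusted p = 6.82e-05, edgeR) and -1.64 ± 0.40 in dauer exit (adjusted p = 7.19e-09, edgeR), and it did not pass the filter in glp-4(bn2). Of the 4 somatic gonad and distal tip markers tested, 1 fell and 1 rose in continuous N2, and 2 fell and 1 rose in dauer exit. The part of these markers in the fall of lag-2 was not tested.

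The receptor gene lin-12 (WBGene00003001; chromosome III, 9060221 to 9071472, minus strand) fell late. In continuous N2 its level was 18.4 to 33.0 CPM through hour 29, with the highest library at hour 25, and 7.50 to 12.7 CPM afterwards. The first 3 libraries averaged 21.9 ± 2.51 (SD, n = 3) CPM and the last 3 averaged 8.46 ± 1.15 CPM, 2.58-fold lower (fitted change -2.47 ± 0.27, adjusted p = 2.01e-06, edgeR). In dauer exit it first climbed from 23.6 CPM at hour 4 to 53.2 CPM at hour 9, and then declined to 7.80 CPM at hour 22. Between the ends of that course the mean fell from 25.4 ± 1.06 to 9.28 ± 1.44 CPM, 2.74-fold (fitted change -1.33 ± 0.31, adjusted p = 9.83e-08, edgeR). That p is for the whole spline, which covers the climb to hour 9 as well as the decline. Its 8 h wave in dauer exit passed the p threshold (adjusted p = 0.00952) but at 0.31 ± 0.07 was under the amplitude needed.

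The receptor gene glp-1 (WBGene00001609; chromosome III, 9092241 to 9099698, plus strand) changed little for most of each N2 course and was highest in the last libraries. In continuous N2 it ranged from 32.3 to 73.9 CPM (median 45.2 CPM), and the last 3 libraries averaged 1.51 times the first 3 (59.3 ± 12.9 against 39.3 ± 3.69 CPM, SD, n = 3). The fitted change of 0.64 ± 0.15 was under the size needed for a call (adjusted p = 0.00184, edgeR). In dauer exit glp-1 stood between 48.4 and 68.7 CPM at hours 1 to 6, reached 86.4 CPM at hour 9, returned to 63.0 CPM at hour 18 and ended at 119 CPM. The means of the first and last 3 libraries were 55.5 ± 11.5 and 101 ± 17.6 CPM, and the rise was called (fitted change 1.18 ± 0.22, adjusted p = 0.000223, edgeR). Without hour 22 the fitted change was 0.88 and the call was lost.

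**Figure D3:**
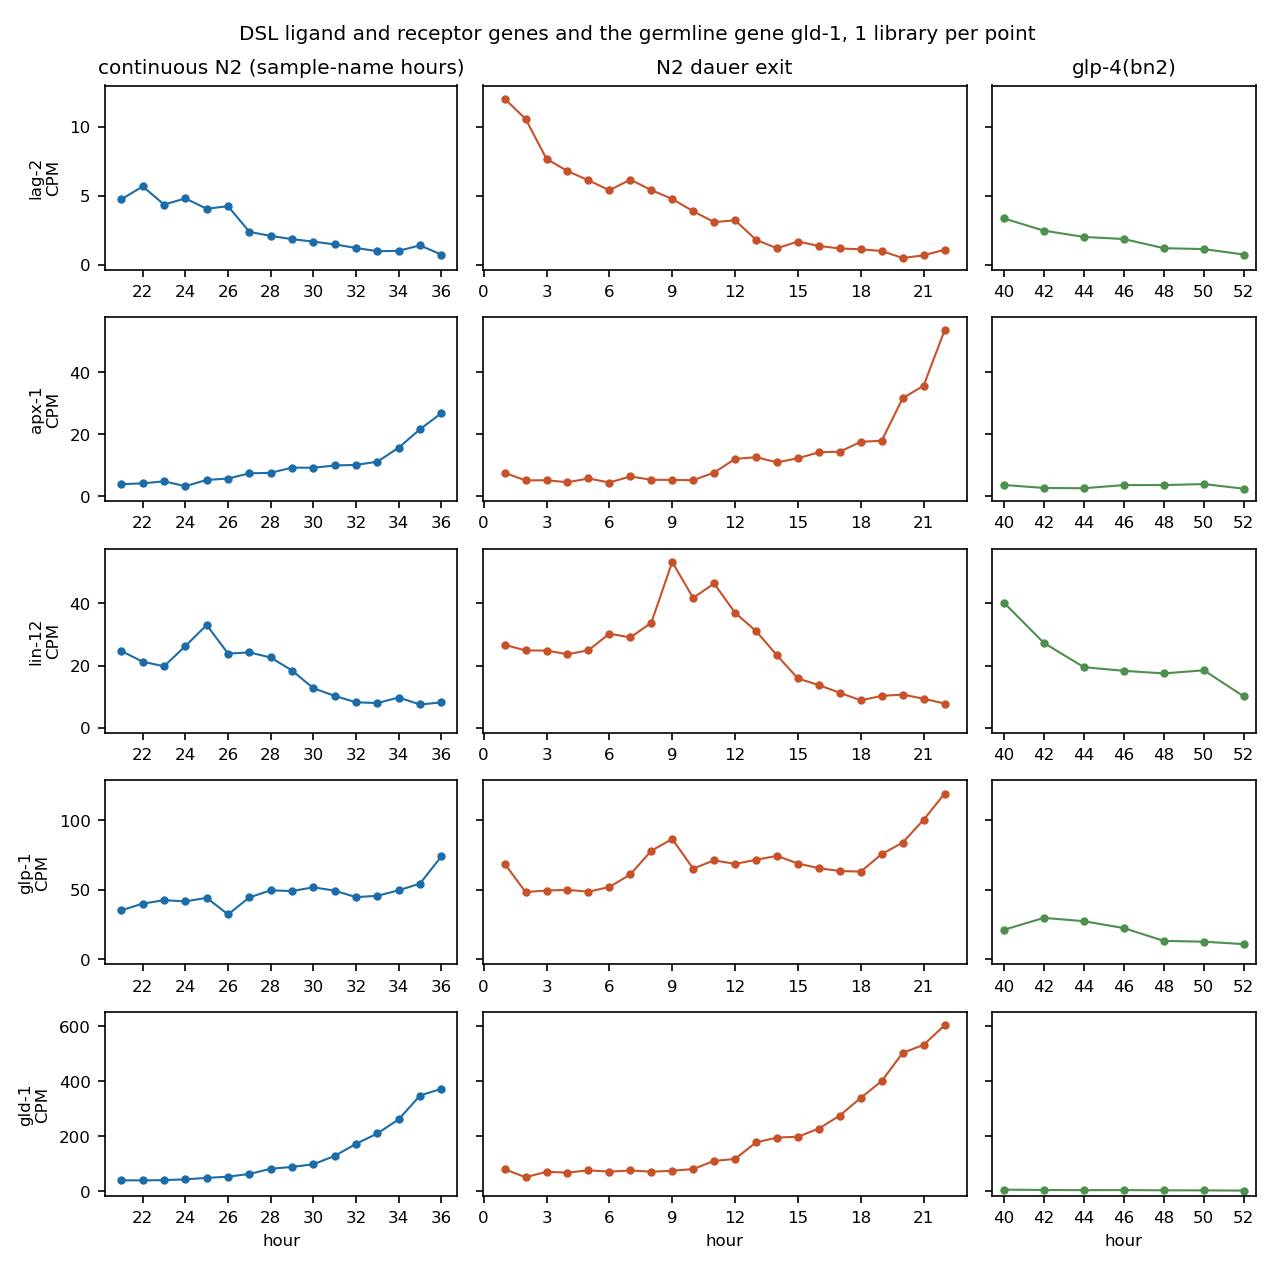
Level (CPM, vertical axes, shared along each row) of the ligand genes lag-2 and apx-1, the receptor genes lin-12 and glp-1 and the germline gene gld-1 against hour, in continuous N2 (blue), N2 dauer exit (orange) and glp-4(bn2) (green); each point is 1 library. The line of apx-1 bends upward late in both N2 courses and stays between 2.43 and 3.92 CPM in glp-4(bn2), while lag-2 falls in all 3 courses.

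For the cycling co-ligand genes a course-long change is harder to read, since it depends on where in the wave a course starts and ends. In dauer exit dos-1 rose from 0.0942 ± 0.129 (SD, n = 3) to 10.8 ± 3.15 CPM (fitted change 8.58 ± 2.49, adjusted p = 0.000154, edgeR). In continuous N2 its change of 0.86 ± 0.37 was not called (adjusted p = 0.0506, edgeR), but reached 1.23 and was called without hour 21. It was also called with RLE size factors (1.00, adjusted p = 0.0307, edgeR), with DESeq2 (1.00, adjusted p = 0.0182) and with a linear term alone (1.75, adjusted p = 0.0414, edgeR). The dauer exit rise called for dos-2 had a fitted change of 9.78 ± 9.52, a standard error as large as the change, and its first and last libraries both had no counts (adjusted p = 0.0104, edgeR). The dos-2 rise in continuous N2 (3.35 ± 0.51, adjusted p = 4.2e-05, edgeR) was not called with a linear term alone (2.47, adjusted p = 0.383). For osm-7 no course-long change was called in either N2 course, and osm-11 had a change of -0.87 ± 0.17 in continuous N2, under the size needed (adjusted p = 0.000343, edgeR), that reached -1.02 and was called without hour 36.

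In glp-4(bn2) the levels of 2 of the 9 genes, apx-1 and glp-1, lay below N2, and the other 7 overlapped with it. The comparison sets 7 glp-4(bn2) libraries beside the 8 continuous N2 libraries of hours 29 to 36. It has no test, since time points are not replicates, and strain, hour and culture cannot be told apart. Every glp-4(bn2) library lay below every one of these N2 libraries for 2 of 9 genes, and above for 0 of 9. Beside this stand 25.0% and 7.52% of the 16007 genes that passed the filter in either course. The level of apx-1 was 2.43 to 3.92 CPM in glp-4(bn2), with a mean of 3.21 ± 0.617 (SD, n = 7), and 9.20 to 26.8 CPM in N2, with a mean of 14.2 ± 6.67 CPM (n = 8), 4.44-fold higher. Set beside all 16 N2 hours, whose lowest apx-1 level was 3.24 CPM, the groups overlapped. The level of glp-1 was 11.0 to 29.9 CPM in glp-4(bn2), with a mean of 19.7 ± 7.50 CPM, and 44.7 to 73.9 CPM in N2, with a mean of 52.3 ± 9.25 CPM, 2.65-fold higher. Here the libraries also stayed apart from all 16 N2 hours, the lowest of which was 32.3 CPM. For comparison, gld-1 was 61.1-fold, the germline helicase gene glh-1 14.0-fold and the oogenesis gene puf-5 107-fold higher in N2, so the shortfall of glp-1 and apx-1 was smaller than that of these germline genes. The germline marker sums given above moved with this difference, and their part in it was not tested.

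The other 7 genes were present in glp-4(bn2) at levels that overlapped with N2. The mean of lin-12 was 21.6 ± 9.61 CPM against 10.4 ± 3.66 CPM, that of lag-2 was 1.82 ± 0.901 CPM against 1.29 ± 0.379 CPM, and that of osm-11 was 200 ± 38.8 CPM against 141 ± 22.2 CPM. For lag-2 the direction depends on the hours: set beside all 16 N2 hours, its glp-4(bn2) mean was lower, by -0.55 on the log2 scale. For lin-12 and osm-11 the size depends on them. Beside all 16 N2 hours their glp-4(bn2) means were higher by only 0.31 and 0.25 on the log2 scale. The mean of dos-3 was 0.406 ± 0.307 CPM, from 3 to 31 counts a library, against 0.0630 ± 0.0511 CPM, from 0 to 4 counts a library, and the groups overlapped through the 40 h library. Beside the higher means of lin-12, lag-2 and osm-11, the neuron marker sum given above stood higher in every glp-4(bn2) library. The intestine sum lay mostly higher but overlapped narrowly with N2. The sums of the seam, vulva, somatic gonad, epidermis and body-wall muscle markers overlapped with N2 as well. The part of any of these lists in the 3 means was not tested. For the cycling genes the mean over the course was 84.9 ± 42.3 CPM against 81.5 ± 78.3 CPM for osm-7, 6.89 ± 2.59 CPM against 8.20 ± 5.79 CPM for dos-1 and 4.99 ± 4.68 CPM against 6.95 ± 9.75 CPM for dos-2. The rise and fall of dos-2 in glp-4(bn2), 8.66, 11.6 and 8.85 CPM at 44, 46 and 48 h and 0.199 CPM at 42 h, coincided with that of mlt-10, which was highest at 46 h (615 CPM). The highest osm-7 library came next, 154 CPM at 48 h. The level of dos-1 was already 9.16 CPM at 48 h and then 8.51 and 10.9 CPM at 50 and 52 h, the last library, so its peak is not bounded and an order of osm-7 and dos-1 is not shown there. These 7 libraries gave no called wave for any of the 9 genes (0 of 14407 genes, 0%, by edgeR; 549 at an unadjusted p under 0.05, with osm-7 the only 1 of the 9 among them). DESeq2 called 180 genes there, with osm-7 again the only 1 of the 9.

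Of the course-long changes in glp-4(bn2), none of the 9 genes rose, beside 5.17% of all genes tested. Its glp-1 level went from 21.3, 29.9 and 27.5 CPM at 40 to 44 h to 13.3, 12.8 and 11.0 CPM at 48 to 52 h, with a fitted change of -1.48 ± 0.36 that was not called (adjusted p = 0.0766, edgeR). The level of apx-1 was 3.64 CPM at 40 h and 2.43 CPM at 52 h, with its highest library, 3.92 CPM, at 50 h, and no change was called (fitted change 0.39 ± 0.34, adjusted p = 0.490, edgeR). In this short course single libraries decide several calls: without 40 h the changes of dos-1, dos-3 and glp-1 were called, and without 52 h those of dos-1, dos-2 and osm-7 were.

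**Figure D4:**
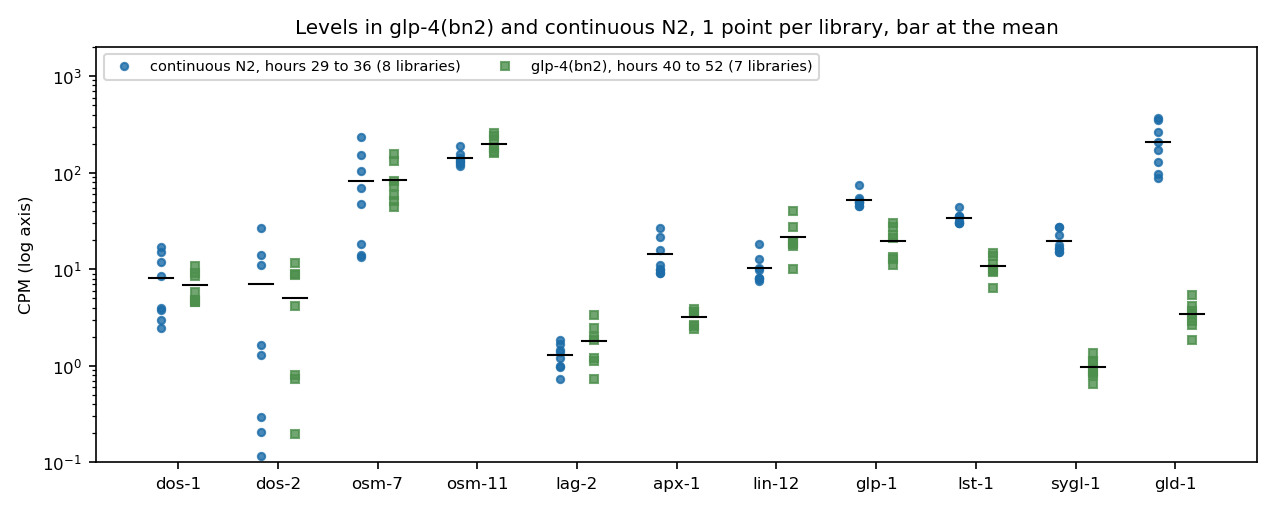
Level (CPM, log axis) of 8 ligand, co-ligand and receptor genes, of the GLP-1 target genes lst-1 and sygl-1 and of the germline gene gld-1 in the 8 continuous N2 libraries of hours 29 to 36 (blue circles) and the 7 glp-4(bn2) libraries (green squares); each point is 1 library and the bars are means. The 2 groups are apart for apx-1, glp-1, lst-1, sygl-1 and gld-1, and overlap for the other genes; dos-3 is left out because it has libraries at 0.

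Levels can be compared between genes only per length, here as CPM per kilobase of exons. Over the 16 continuous N2 libraries osm-11 was highest, with a mean of 142 ± 31.1 CPM per kb (SD over hours), followed by osm-7 at 39.6 ± 38.6 and glp-1 at 10.8 ± 2.15 CPM per kb. Then came dos-1 at 7.88 ± 5.61, dos-2 at 4.31 ± 7.32, lin-12 at 3.82 ± 1.79, apx-1 at 3.52 ± 2.38 and lag-2 at 1.79 ± 1.12 CPM per kb, neighbours that did not differ beyond their spread over hours. The lowest was dos-3 at 0.0481 ± 0.0566 CPM per kb. In glp-4(bn2) the order was osm-11 (169 ± 32.9), osm-7 (40.4 ± 20.1), dos-1 (7.86 ± 2.95), dos-2 (4.92 ± 4.60), lin-12 (4.75 ± 2.11), glp-1 (4.56 ± 1.73), lag-2 (1.22 ± 0.605), apx-1 (1.16 ± 0.223) and dos-3 (0.178 ± 0.134 CPM per kb). Of the receptor genes, glp-1 was thus above lin-12 per length in continuous N2, whereas in glp-4(bn2) the means lay within their spread.

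Several of these genes lie close together, as the WBcel235 annotation shows. The gene dos-1 starts 4.24 kb from the end of glp-1 with no protein-coding gene between, and lin-12 lies 20.77 kb from glp-1 with 6 protein-coding genes between. The ligand genes lag-2 and apx-1 are 20.08 kb apart, also with 6 protein-coding genes between. The patterns of these neighbours differed in part: dos-1 cycled and glp-1 was not called cycling, though both were called as rising in dauer exit. The gene lag-2 fell in the courses in which apx-1 rose. Exons of glp-1 overlap the opposite-strand gene ZK507.1 over 18 bp, which did not exceed 6.57 CPM in any library, and those of dos-1 overlap the opposite-strand gene cya-1 over 107 bp, which was not analysed here. The sources used here do not say whether counting used strand, and reads in the overlaps cannot be assigned with certainty.

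For each of the 8 genes other than dos-3, which did not pass the filter in either wave fit, the 3 genes of closest pattern were found by Pearson's r of log2 CPM over the 38 N2 libraries, centred within each course, among 8279 genes with a symbol; r is a description here, and the libraries share their depth and hour. The closest to apx-1 were oma-1 (r = 0.98), daz-1 (0.98) and mex-5 (0.98), all known for roles in oocytes or germ cells. The closest to dos-2 were grl-18 (0.94), mlt-10 (0.94) and abu-13 (0.93). Those closest to osm-7 were sma-5 (0.92), pqn-35 (0.91) and trx-3 (0.89), and those closest to dos-1 were the collagen genes col-159 (0.96), col-93 (0.95) and col-133 (0.94). For lag-2 they were the TGF-beta ligand gene daf-7 (0.95), zag-1 (0.95), which encodes a neuronal transcription factor, and zip-8 (0.95). For lin-12 they were fog-1 (0.96), a regulator of sperm fate in germ cells, snpc-1.3 (0.92) and shc-1 (0.90). The receptor gene glp-1 had lower values, with the DNA repair gene mre-11 (0.88), toe-2 (0.86) and smc-5 (0.84), and osm-11 had the lowest, with crh-1 (0.80), ttr-33 (0.75) and col-177 (0.74).

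The rest of the Notch pathway was read from a list of 41 genes, of which 39 were found and 34 passed the filter in each fit. The genes of the nuclear complex, lag-1 and sel-8, and the ADAM protease gene sup-17 passed no call in any N2 fit, with fitted changes of 0.02, 0.21 and -0.12 in continuous N2 and 0.12, 0.28 and 0.32 in dauer exit. The level of lag-1 was 24.3 to 36.0 CPM in continuous N2 and 27.3 to 50.1 CPM in dauer exit. The presenilin genes of gamma-secretase went opposite ways in dauer exit. There sel-12 fell, from 18.7 ± 0.688 (SD, n = 3) to 8.66 ± 0.774 CPM (fitted change -1.10 ± 0.15, adjusted p = 3.16e-08, edgeR), and hop-1 rose, from 5.20 ± 0.449 to 23.3 ± 3.62 CPM (fitted change 2.46 ± 0.19, adjusted p = 3.91e-11, edgeR). In continuous N2 sel-12 fell too (-1.09 ± 0.20, adjusted p = 0.000289, edgeR), while the change of hop-1, 0.93 ± 0.19, was under the size needed.

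Waves were called in dauer exit for 4 of the 34 other pathway genes (32.7% of all genes), against the median amplitude of 0.18 over the 34 and 0.32 over all genes. The widest were the DSL ligand genes dsl-7 (1.75 ± 0.36, peaks at 11.5 and 19.5 h, adjusted p = 0.0110, edgeR) and dsl-5 (1.49 ± 0.43, peak at 15.3 h, adjusted p = 0.0258, edgeR). The next was the epsin gene epn-1, whose product takes part in endocytosis (0.57 ± 0.05, peak at 17.6 h, adjusted p = 0.000154, edgeR). In its highest libraries epn-1 stood at 174 CPM at hour 32 in continuous N2, 185 CPM at hour 9 in dauer exit and 169 CPM at 46 h in glp-4(bn2), the hours at which dos-2 was also highest or at a peak. By contrast, the DSL ligand genes dsl-5, dsl-7 and dsl-3 were low, with dsl-5 at no more than 3.31 CPM in any N2 library. The level of dsl-7 was 0.333 to 4.71 CPM over continuous N2, and that of dsl-3 was 0.453 to 2.02 CPM. In continuous N2 4 of the 34 were called as well, dsl-5, dsl-7, epn-1 and dsl-3.

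Most of these 34 genes had no called course-long change, and the median fitted change was -0.12 in continuous N2 and 0.13 in dauer exit, against -0.12 and 0.12 over all genes tested. In continuous N2 none rose by edgeR (2 with DESeq2), beside 20.6% of all genes, and 6 fell, beside 15.3%. The largest falls were those of dsl-5 (-2.72 ± 0.61), the nuclear modulator gene sel-7 (-2.65 ± 0.28) and the zinc-finger gene egl-43 (-2.15 ± 0.16), a LIN-12 target in the uterus. In dauer exit 3 rose, beside 29.9%, namely dsl-3 (2.95 ± 0.44), hop-1 and lst-4 (1.37 ± 0.20). There 8 fell, beside 24.7%, led by sel-7 (-4.67 ± 0.34), dsl-5 (-4.23 ± 1.79) and egl-43 (-2.84 ± 0.21). The level of sel-7 was highest in the first dauer exit library, 78.4 CPM, and lowest at hour 22, 1.57 CPM. The targets of GLP-1 in germline stem cells, sygl-1 and lst-1, had no called change: sygl-1 was 14.9 to 27.7 CPM in continuous N2 and 18.0 to 46.0 CPM in dauer exit, and lst-1 was 23.2 to 43.6 CPM and 27.9 to 54.4 CPM. In glp-4(bn2) 1 of the 34 rose, dsl-7 (2.80 ± 0.47, adjusted p = 0.0409, edgeR), and 1 fell, utx-1 (-1.09 ± 0.20, adjusted p = 0.0453, edgeR).

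**Figure D5:**
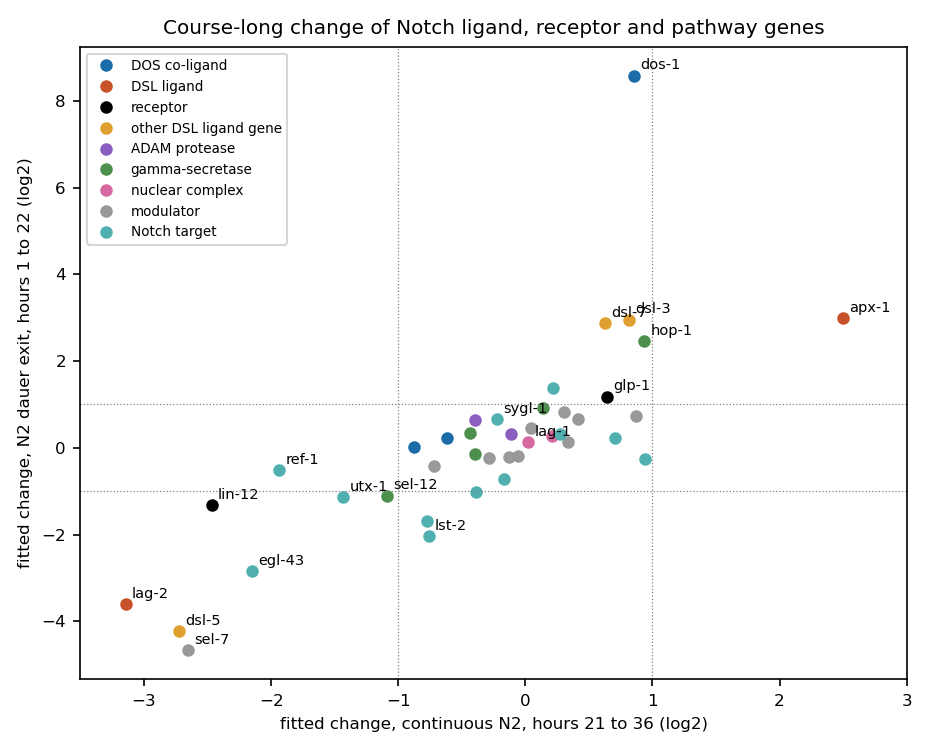
Fitted course-long change (log2) in N2 dauer exit, hours 1 to 22 (vertical axis), against that in continuous N2, hours 21 to 36 (horizontal axis), for 41 genes tested in both, coloured by role; dotted lines mark a change of 1 either way. The ligand genes lie on opposite sides, apx-1 beyond both dotted lines for a rise and lag-2 at lower left with dsl-5, sel-7 and egl-43. Highest on the vertical axis is dos-1, at 8.58 ± 2.49 (SE). The point of lin-12 is low on both axes. The gene dos-2 is left out because its dauer exit change has a standard error as large as itself.

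The glp-4(bn2) levels of the other pathway genes were set beside the same N2 hours. Of the 34 other pathway genes that passed the filter, 7 were below continuous N2 of hours 29 to 36 in every glp-4(bn2) library. Among all 16007 genes that passed it in either course, 25.0% were. Above N2 in that way was 1 of the 34, the listed Notch target vav-1, beside 7.52%. The level of sygl-1 was 0.652 to 1.37 CPM in glp-4(bn2) and 14.9 to 27.7 CPM in N2, 20.5-fold higher by the means. For fbf-2, a regulator of germline stem cells, it was 0.938 to 1.63 CPM against 15.6 to 20.6 CPM (14.3-fold), for hop-1 0.375 to 1.34 CPM against 6.23 to 13.6 CPM (9.30-fold) and for lst-1 6.47 to 14.8 CPM against 30.4 to 43.6 CPM (3.16-fold). The other 3 were pen-2 (2.25-fold), bre-5 (1.83-fold) and sel-10 (1.59-fold). The presenilin gene sel-12, by contrast, overlapped with N2 (13.0 to 21.5 CPM against 7.83 to 18.2 CPM), as did lag-1 and sel-8. Of the 12 listed Notch targets, only sygl-1, fbf-2 and lst-1 were lower in this way. The targets lst-2, lst-4, lip-1, ark-1, ref-1, lin-11, egl-43 and utx-1 overlapped with N2. The germline marker sums given above were lower as well, and their part in these levels was not tested.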

How the data were processed

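Per the labels' protocols, total RNA of washed worms was extracted with Tri-reagent and a stranded mRNA kit was used for the libraries. The table deposited by the authors holds raw counts for each gene. Aligner, counting tool, strand setting and genome build: not given in the sources used here. Another deposited table of log2 values was not used. Symbols came from a names table, which matched 18781 of 20182 genes, and all 9 members were found; coordinates are WBcel235. Promoter and protein sequences were not used here.

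The members and all lists were chosen with earlier results of these data known. Counts were fitted per course with edgeR 4.0.16 in R 4.3.3 (filterByExpr, TMM, quasi-likelihood F-test, Benjamini-Hochberg over all genes tested). The wave model held an intercept, a linear hour term and an 8 h cosine and sine, the last 2 tested together; the first 10 hours of dauer exit stayed out of it. Trends were the linear term or, for the whole dauer exit course, a natural spline (3 degrees of freedom), whose direction is the fitted change from first to last hour. The spline p tests its 3 terms together and not that change. Scripts were tested on simulated data. DESeq2 1.42.0 and other settings were alternatives. CPM used library totals. Floors are 3 counts and cover counting error only. Among 990 library pairs the smallest chi-square per gene was 18.6, so none looked deposited again. Named genes are all members, the 3 largest called pathway genes per comparison and direction, 7 pathway genes always, and the 3 of closest pattern; others were chosen after their values were seen.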

Additional observations from a re-analysis of the deposited data

How the results depend on the processing

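No paired analysis was possible because each time point has 1 library and the replicate numbers only name hours. The count of members with a called wave was 2 or 3 in dauer exit over 8 other settings and 3 when any library was left out. Among members in glp-4(bn2) (main counts: 1 falling, 0 rising, 0 cycling), library size alone gave 2 falling, DESeq2 gave 3 falling, 2 rising and 1 cycling, and a linear term alone gave 2 falling and 1 rising. Leaving out single libraries there gave 0 to 2 falling and 0 to 3 rising. Other pathway genes falling in glp-4(bn2) (main 1) numbered 2 with library size alone, 0 without the filter, 4 with DESeq2, 4 with a linear term alone and 0 to 2 with a library left out; those rising there (main 1) numbered 0 with a linear term alone and 0 to 1 with a library left out. Pathway genes rising in continuous N2 (main 0) numbered 2 with RLE size factors, 1 with library size alone, 2 with DESeq2, 2 with a linear term alone and 0 to 2 with a library left out. Pathway genes falling in dauer exit (main 8) numbered 5 to 9 with a library left out, the 5 without hour 21. Pathway waves (main 4) numbered 1 with a 7 h period in each N2 course, and 2 without the linear term in dauer exit. With the clock shift 1 h earlier or later, waves differed between the N2 courses for 2 or 3 members (main 0) and 2 or 5 pathway genes (main 0). Against N2 hours 21 to 36, 1 member (main 2) was lower in every glp-4(bn2) library, and with glp-4(bn2) at 46 to 52 h 1 (main 0) was higher. Uncalled changes reversed for osm-11 in dauer exit (main 0.03; -0.12 with library size alone, -0.0184 without the filter, -0.25 to 0.42 with a library left out) and osm-7 (continuous N2, main -0.62, 0.71 with a linear term alone; dauer exit, main 0.23, -0.31 to 0.78 with a library left out). The glp-4(bn2) change of dos-2 was -0.11 to 5.38 with a library left out (main 2.96). Causes of these shifts were not tested. At CPM below 1, as for dos-3 and dos-2 between spikes, depth limits what can be seen.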
